A study of Mus musculus with 2 samples.

Results

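Elastic fibre and microfibril genes encode the proteins of the elastic matrix and of the thin filaments that scaffold it. A list of 10 symbols, chosen with earlier results of these data known, was looked up in the expression tables of C2C12 cells, and all of them, 10 of 21829 genes, had a row: Eln, Fbn1, Fbn2, Fbln1, Fbln2, Fbln5, Efemp2, Mfap2, Mfap5 and Ltbp1. C2C12 is an immortalised mouse myoblast line. The study set an unedited line (WT) beside a line in which CRISPR–Cas9 had been used to disrupt Gne, the enzyme that starts sialic acid synthesis (genotype GNE KO). Both were grown as myoblasts in serum-containing medium with gentamicin, no other agent is named for the sequenced cells, and no time point or passage is given. The edited line was expanded from a single cell according to the supplementary methods, so it stands for 1 clone. Each line was sequenced once, as 1 library of polyadenylated RNA, and no difference given here has a replicate check or a test.

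Elastic fibres form in steps outside the cell. Fibrillins assemble into microfibrils, to which the microfibril-associated glycoproteins (MAGPs) and the latent TGF-beta binding proteins attach, and fibulins then bring tropoelastin, the soluble product of Eln, together with the lysyl oxidases that crosslink it. The same microfibrils hold latent TGF-beta and BMPs near the cell surface, and in muscle they lie in the connective tissue around the fibres.

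Values are FPKM, a level per kilobase of transcript, as far as the deposited tables allow the unit to be read, and differences are log2((KO + 1)/(WT + 1)), on which differences of low genes look smaller than they are. For 10542 genes the mean of both libraries reached 1 FPKM, and the middle 50% of their log2 differences lay between -0.21 and 0.23. The targeted gene, Gne, was at 6.67 FPKM in WT and 7.34 FPKM in the KO-labelled library. Its RNA therefore does not show which library carries the edit, and the library from the edited line is called the KO-labelled library throughout. The read number is not given with the values. Among genes with a single annotated transcript, low values were multiplied by transcript length in kilobases. The products were densest around 0.0355 in the WT library (37 of 143 genes) and 0.0385 in the KO-labelled library (35 of 149 genes). This was taken as the worth of 1 sequenced fragment.

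The myoblast label was checked against marker genes. Of 7 myoblast markers, Myod1, the myogenic master regulator, was at 59.97 FPKM in WT and listed at 0 in the KO-labelled library, Des went from 97.6 to 3.84 FPKM, Myf5 from 9.14 to 20.3 FPKM, and Pax7 was listed at 0 in both. The summed level of the 7 markers was 213 FPKM in WT and 38.7 FPKM in the KO-labelled library. Smooth muscle and myofibroblast markers went the other way, from a sum of 233 to 599.8 FPKM over 5 genes, most of it Acta2. Tagln was at 20.3 and 54.5 FPKM, Lmod1 at 0.086 and 1.49 FPKM, and Cnn1 at 0.043 and 0.157 FPKM. Myh11, which defines mature smooth muscle, stayed at or below 0.02 FPKM. The sum of 7 fibroblast and fibro-adipogenic markers was 345 and 169 FPKM, and most of the gap was Cd34, at 136 and 10.6 FPKM. Ly6a was at 198 and 146 FPKM, Pdgfra at 10.8 and 12.3 FPKM, Pi16 at 0.068 and 0.085 FPKM, and Dpp4, Thy1 and Tcf21 at 0 in both. Endothelial markers summed to 0.019 and 0.011 FPKM over 4 genes, and the 4 macrophage and blood markers to 2.90 and 1.14 FPKM, nearly all of it Cd68, with the defining Ptprc and Adgre1 listed at 0 in both. The part of these marker shifts in the results was not tested, and in bulk RNA fewer cells of a type and less RNA per cell cannot be told apart.

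Elastin itself was close to absent from both libraries. Eln, the gene of tropoelastin (chr5:134731445-134776322 in GRCm39, minus strand), was at 0.01 FPKM in WT and listed at 0 in the KO-labelled library. With its canonical transcript of 3998 bases, the WT value corresponded to about 1.1 fragments. Fbn2, the fibrillin best known from developing tissues (chromosome 18, 58141695 to 58343645), was listed at 0 in both. Fbn1, which forms the backbone of most microfibrils (chr2:125142514-125349913, minus strand), was at 9.38 FPKM in WT and 7.46 FPKM in the KO-labelled library, a log2 difference of -0.30. Of the 2 fibrillin genes, Fbn1 thus supplied 100% of the fibrillin RNA in both libraries, at a level above 34.4% of the 10542 genes in WT and above 28.4% in the KO-labelled library. These lines therefore carried RNA for the microfibril backbone with next to none for the elastic core.

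The MAGPs are small glycoproteins that bind fibrillins. Mfap2 (MAGP-1) was at 0.084 FPKM in the WT library, about 2.5 fragments of its canonical transcript, and was listed at 0 in the KO-labelled library, so no fold is given. Mfap5 (MAGP-2, chr6:122470878-122508875, plus strand) was at 0.889 FPKM in WT and 3.62 FPKM in the KO-labelled library. This was 4.07 times the WT value and a log2 difference of 1.29, the largest upward difference among the members, with 183 of the 10542 genes further up. Mfap5 remained a low gene, above 1.5% of the 10542 genes in WT and above 13.3% in the KO-labelled library. Its WT value lay under 1 FPKM, so its mean reached that level only through the KO-labelled library. Its annotated coding transcripts run from 328 to 4344 bases, and over that range the values correspond to between 8.2 and 109 fragments in WT and between 30.8 and 408 in the KO-labelled library. The log2 difference was 0.55 with a pseudocount of 5, which is under 2-fold.

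**Figure D1:**
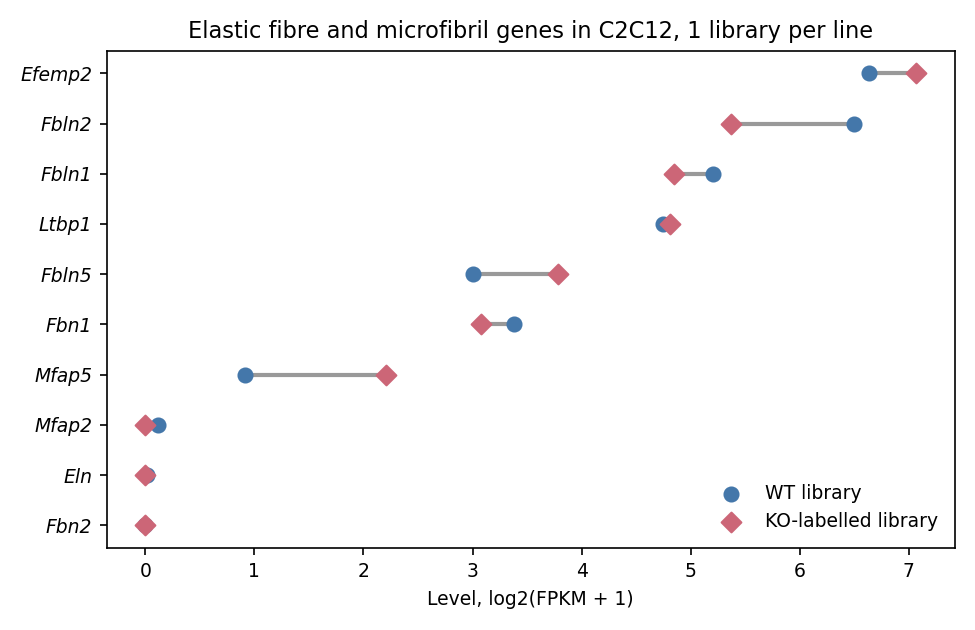
Level of each of the 10 members, as log2(FPKM + 1) on the x axis, in the WT library (circles) and the KO-labelled library (diamonds), ordered by mean. Efemp2 and Fbln2 head the list, Fbln2 and Mfap5 show the widest gaps in opposite directions, and Mfap2, Eln and Fbn2 lie at or near 0.

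The fibulins, which link microfibrils, tropoelastin and basement membranes, included the most abundant members. Efemp2, which encodes fibulin-4, a protein that binds lysyl oxidase and is needed for elastic fibre assembly (chr19:5523975-5532545, plus strand), was at 98.5 FPKM in WT and 133 FPKM in the KO-labelled library. Its log2 difference was 0.43, and its level lay above 91.6% and 93.8% of the 10542 genes. Fbln2, a large fibulin that binds fibrillin-1 and tropoelastin (chr6:91189437-91249522, plus strand), was at 89.2 FPKM in WT and 40.5 FPKM in the KO-labelled library. The WT value was 2.20 times the other, a log2 difference of -1.12, with 301 of the 10542 genes further down. Set against Efemp2, Fbln2 was at 0.905 times its value in WT and 0.304 times in the KO-labelled library.

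Fbln1, a fibulin of basement membranes and elastic tissue (chr15:85090150-85170737, plus strand), was at 35.9 FPKM in WT and 27.7 FPKM in the KO-labelled library, a log2 difference of -0.36. Fbln5, an integrin-binding fibulin required for elastic fibre assembly (chr12:101712556-101785429, minus strand), was at 7.00 FPKM in WT and 12.7 FPKM in the KO-labelled library. This was 1.82 times the WT value, a log2 difference of 0.78, with 487 genes further up. The fibulins therefore differed in both directions, with Fbln5 and Efemp2 higher in the KO-labelled library and Fbln1 and Fbln2 lower. Only Fbln2 was beyond 2-fold, and the value of Fbln1 was close to the median of the genes within 5 Mb of it, -0.34.

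The summed fibulin level was 231 FPKM in WT and 214 FPKM in the KO-labelled library, so the makeup moved more than the total. Fbln2 was 38.7% of the sum in WT and 18.9% in the KO-labelled library. Efemp2 went from 42.7% to 62.2%, Fbln1 from 15.6% to 12.9% and Fbln5 from 3.0% to 6.0%. The ratio of Fbln2 to Fbln5 was 12.7 in WT and 3.18 in the KO-labelled library, and this ratio is the same under any scaling of a whole library.

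**Figure D2:**
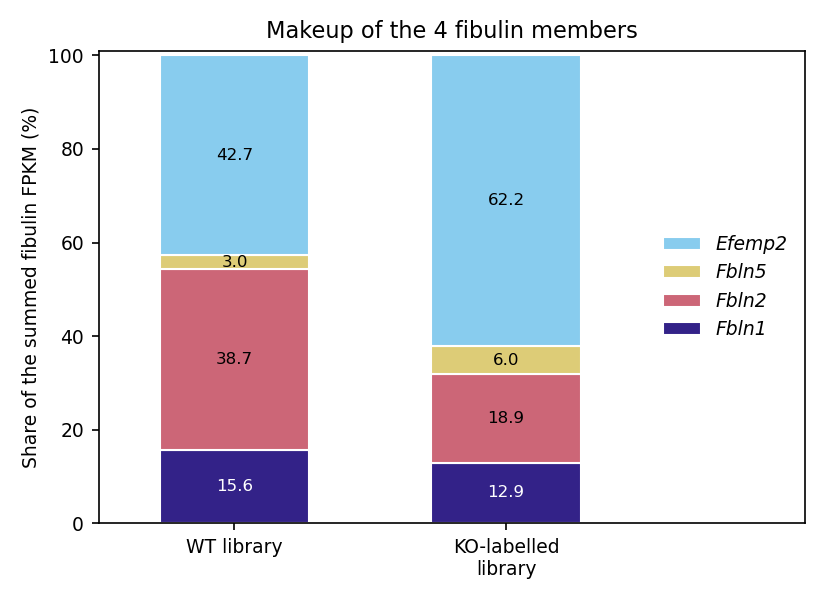
Share of the summed FPKM of the 4 fibulin members held by each gene, in percent on the y axis, for the WT library and the KO-labelled library (1 library each). Efemp2 takes 42.7% in WT and 62.2% in the KO-labelled library, and Fbln2 38.7% and 18.9%.

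Promoter sequences are shown for Fbln2 and Fbln5, the fibulins with the largest downward and upward log2 differences. RefSeq promoter windows were given for 7 of the 10 members, and the 250 bases before the RefSeq transcript start of each gene were placed in GRCm39 by an exact match, found at a single position of the chromosome. Eln, Fbn2 and Mfap5 had no entry. The Fbln2 window is chr6:91189496-91189745 on the plus strand, ending 11 bases from the nearest GENCODE transcript start, and the Fbln5 window is chr12:101785379-101785628 on the minus strand, 4 bases from one. GENCODE also has starts further upstream. The Fbln2 gene is annotated from 91189437, so its whole window lies inside the gene. The Fbln5 gene reaches 101785429, so part of its window does too. Both are written 5′ to 3′, with E-boxes in capitals, the letters CANNTG that the MyoD family and many other basic helix-loop-helix factors bind.
Fbln2: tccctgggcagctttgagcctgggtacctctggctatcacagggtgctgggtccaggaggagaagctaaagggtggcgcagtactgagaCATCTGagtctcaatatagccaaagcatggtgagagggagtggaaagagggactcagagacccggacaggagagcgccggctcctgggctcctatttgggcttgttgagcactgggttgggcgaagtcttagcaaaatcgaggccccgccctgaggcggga
Fbln5: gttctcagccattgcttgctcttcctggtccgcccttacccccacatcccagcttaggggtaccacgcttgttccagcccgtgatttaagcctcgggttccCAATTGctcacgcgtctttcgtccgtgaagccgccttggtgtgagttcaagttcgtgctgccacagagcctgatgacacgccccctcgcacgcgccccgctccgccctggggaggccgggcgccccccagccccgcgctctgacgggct
Each window held 1 E-box, a motif that reads the same on both strands and is present in 66.2% of the 32851 promoter windows of that length. In neither was it CAGCTG, the form with a GC centre, which 13.0% of all windows held. The GC box, GGGCGG on either strand, occurred 1 time for Fbln2 and 2 times for Fbln5, against 32.7% of all windows with at least 1. Neither window held TATAAA or the AP-1 letters TGANTCA on either strand, which 12.4% and 6.7% of all windows held. Binding of no factor was measured in these cells, and the letters are given as a description. Fbln5 has a further RefSeq start, whose window held no E-box and no GC box.

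Ltbp1 ties latent TGF-beta to fibrillin microfibrils and fibronectin (chr17:75312519-75699507, plus strand). Its values were 25.8 FPKM in WT and 27.1 FPKM in the KO-labelled library, a log2 difference of 0.07. This was the smallest difference among the 7 members that reached a mean of 1 FPKM. The ratio of Fbn1 to Ltbp1 was 0.364 in WT and 0.276 in the KO-labelled library.

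Of the 10 members, 7 reached a mean of 1 FPKM, and Eln, Fbn2 and Mfap2 did not. Among the 7, Mfap5 alone was more than 2-fold higher in the KO-labelled library, where 2.84% of all 10542 genes were, and Fbln2 alone was more than 2-fold lower, where 3.43% of all genes were. The other 5 lay between those limits. Mfap5 reached the mean of 1 FPKM only through the KO-labelled library, since its WT value was 0.889 FPKM. Its count as a higher gene is therefore a description only. Of the 7 log2 differences 4 were above 0 and 3 below, where 50.7% of all 10542 genes were above 0. The median was 0.07 against 0.0061 over all 10542 genes. The sign of the members' median turned with the filter: it was -0.01 over all 10 members and -0.11 over those with a mean of at least 5 FPKM.

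**Figure D3:**
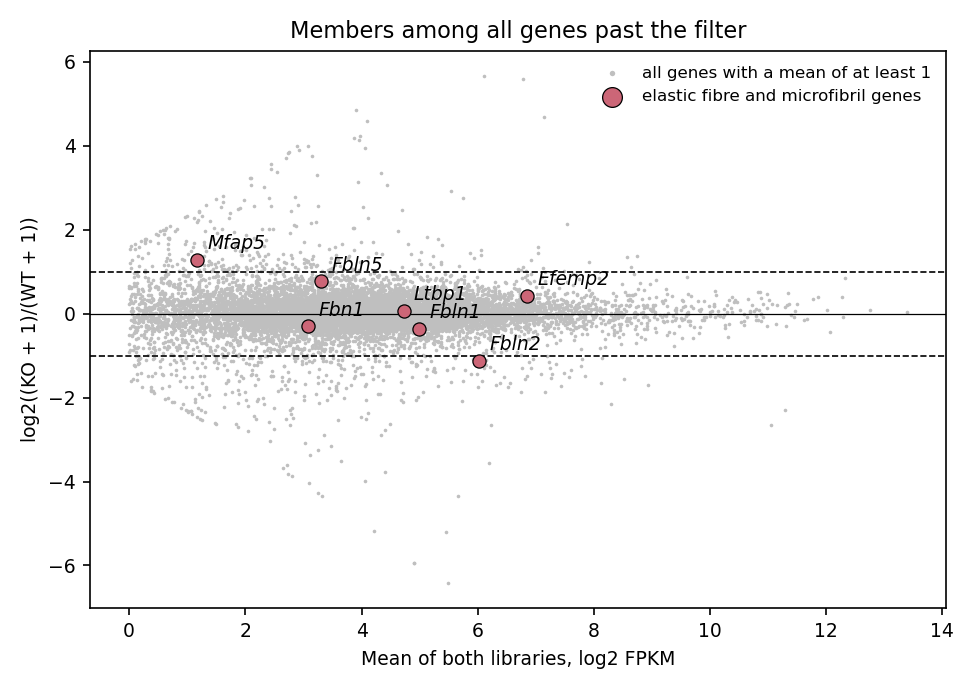
Each point is 1 of the 10542 genes that reached a mean of 1 FPKM, with the mean of both libraries on the x axis (log2 FPKM) and log2((KO + 1)/(WT + 1)) on the y axis; dashed lines mark 2-fold. The 7 labelled members spread over both sides of 0, with Mfap5 above the upper line and Fbln2 below the lower one.

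To see whether a member differed along with the genes around it, each was set beside the genes within 5 Mb of it in GRCm39 that reached a mean of 1 FPKM. Fbln1 matched its surroundings, with a log2 difference of -0.36 beside a median of -0.34 over 80 neighbours. Fbln2 did not, since its 49 neighbours had a median of 0.014, and the difference beyond them was -1.13. Mfap5, on the same chromosome as Fbln2, had 68 neighbours with a median of -0.048 and kept 1.34 beyond them. Fbln5 kept 0.75 and Efemp2 0.52 beyond medians of 0.027 and -0.09, whereas Fbn1 kept -0.18 and Ltbp1 0.083.

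**Figure D4:**
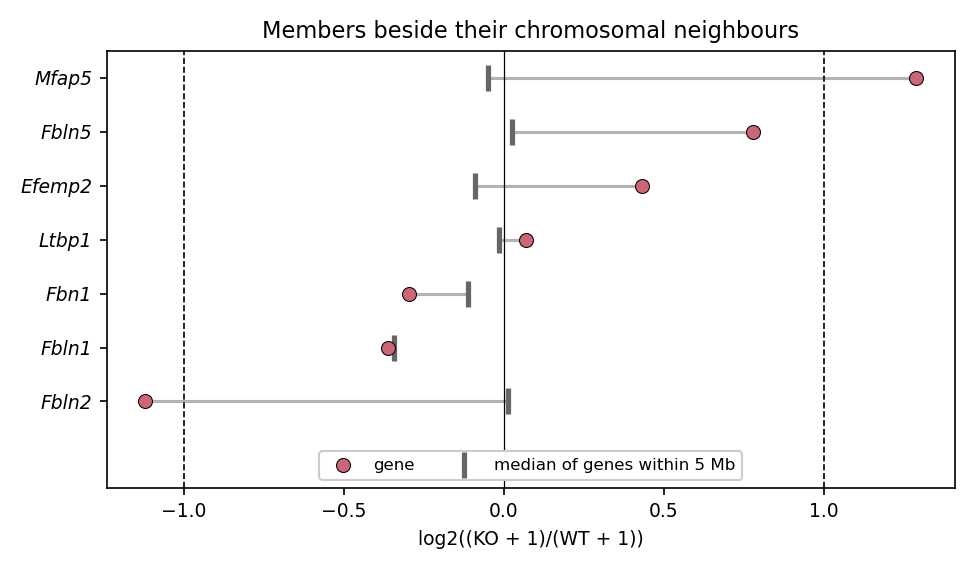
For the 7 members that reached a mean of 1 FPKM, the circle gives log2((KO + 1)/(WT + 1)) of the gene and the bar the median of the genes within 5 Mb on either side; dashed lines mark 2-fold. The medians lie between -0.34 and 0.027, and Fbln1 lies closest to its neighbours' median.

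Overlapping genes were checked, since the strand setting of the quantification is not given. Efemp2 shares 173 exon bases with Mus81 on the opposite strand, which was at 9.63 FPKM in WT and 10.3 FPKM in the KO-labelled library, low beside Efemp2 itself. Fbn1 shares 2442 exon bases with the opposite-strand transcript Gm9913, which was listed at 0 and 0.049 FPKM. Eln shares 423 exon bases with Gm30003 and Fbn2 172 with Gm41741, both on the opposite strand and without a value in these data. Fbln1, Fbln2, Fbln5 and Mfap2 overlap no other annotated gene. Mfap5 shares no exon bases with Rimklb, and Ltbp1 none with the genes it overlaps.

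The rest of the elastic fibre pathway was followed with 61 partner genes, of which 38 reached a mean of 1 FPKM. Of these 38, 2 were more than 2-fold higher in the KO-labelled library, 2 more than 2-fold lower and 34 in between. The shares of 5.3% in each direction stand beside 2.84% and 3.43% of all genes. The median log2 difference of the partners was 0.31, with 26 above 0 and 12 below, where 50.7% of all 10542 genes were above 0. It was 0.00 over all 61 without the filter, which takes in 23 partners below it, 8 of them listed at 0 in both libraries. With a pseudocount of 5, 1 partner lay beyond 2-fold on the higher side and 0 on the lower.

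Among the crosslinking enzymes, Lox, the main lysyl oxidase of collagen and elastin, was far more abundant than any elastic fibre member, at 396 FPKM in WT and 366 FPKM in the KO-labelled library. Loxl1, which is targeted to elastic fibres through fibulin-5, was at 15.2 and 42.3 FPKM, a log2 difference of 1.42 and of 1.10 beyond its neighbours' median of 0.32. Loxl4 had a log2 difference of -0.78. Both Loxl1 and its binding partner Fbln5 thus had higher values in the KO-labelled library, while Eln, the RNA of the substrate of Loxl1, was at or near 0.

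Among the latent TGF-beta binding proteins, Ltbp4, which binds fibulin-5 and supports elastic fibre assembly, was at 16.9 FPKM in WT and 7.28 FPKM in the KO-labelled library, a log2 difference of -1.11. Ltbp3 was at 44.1 and 54.9 FPKM. Tgfb1, a cytokine whose latent form Ltbp1 ties to microfibrils, was at 62.2 FPKM in WT and 62.4 FPKM in the KO-labelled library, a log2 difference of 0.004. None of the 4 growth factors past the filter differed by more than 2-fold.

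The ADAMTS-like proteins are secreted relatives of the ADAMTS proteases without catalytic activity. Adamtsl4, which binds fibrillin-1, was at 15.7 FPKM in WT and 7.03 FPKM in the KO-labelled library, a log2 difference of -1.06. Adamtsl3 was at 3.90 and 10.1 FPKM, a log2 difference of 1.18. Both were named because they passed 2-fold, and they differed in opposite directions. Adamtsl5, the most abundant of the listed ADAMTS-like genes, was at 23.7 FPKM in WT and 29.8 FPKM in the KO-labelled library, a log2 difference of 0.32.

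Relatives of the members were mostly low. Efemp1, or fibulin-3, was at 0.13 FPKM in WT and 0.366 FPKM in the KO-labelled library, and all 4 fibulin relatives stayed below the filter. Mfap4, another microfibril-associated protein, was listed at 0 in both. Emilin1, a glycoprotein at the border of elastin and microfibrils, was at 37.2 and 50.7 FPKM, a log2 difference of 0.43.

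Receptors and scaffold partners lay mainly above 0. The 4 scaffold partners past the filter, Fn1, Vcan, Bgn and Hspg2, had a median log2 difference of 0.73, none of them beyond 2-fold, and Dcn, a collagen-binding proteoglycan, just missed the filter at 0.272 and 1.68 FPKM. Of 6 RGD-binding integrin subunits past the filter 5 were above 0, where 50.7% of all 10542 genes were, with a median of 0.63. The elastin receptor complex joins an elastin-binding splice form of Glb1 with Neu1, a sialidase, and Ctsa. Glb1 was at 11.8 FPKM in WT and 15.4 FPKM in the KO-labelled library, Neu1 at 10.4 and 14.0 FPKM, and Ctsa at 113 and 121 FPKM, log2 differences of 0.36, 0.40 and 0.10. Furin, the protease that trims profibrillin, was at 30.9 and 38.4 FPKM. Of 6 elastin-degrading proteases and inhibitors past the filter, 3 were above 0 and 3 below, with a median of 0.025. That median pools proteases with their inhibitors. The proteases Ctsl, Mmp2 and Mmp14 had log2 differences of 0.922, 0.479 and -0.012. The inhibitors Timp1, Timp2 and Timp3 had -0.105, 0.062 and -0.168.

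**Figure D5:**
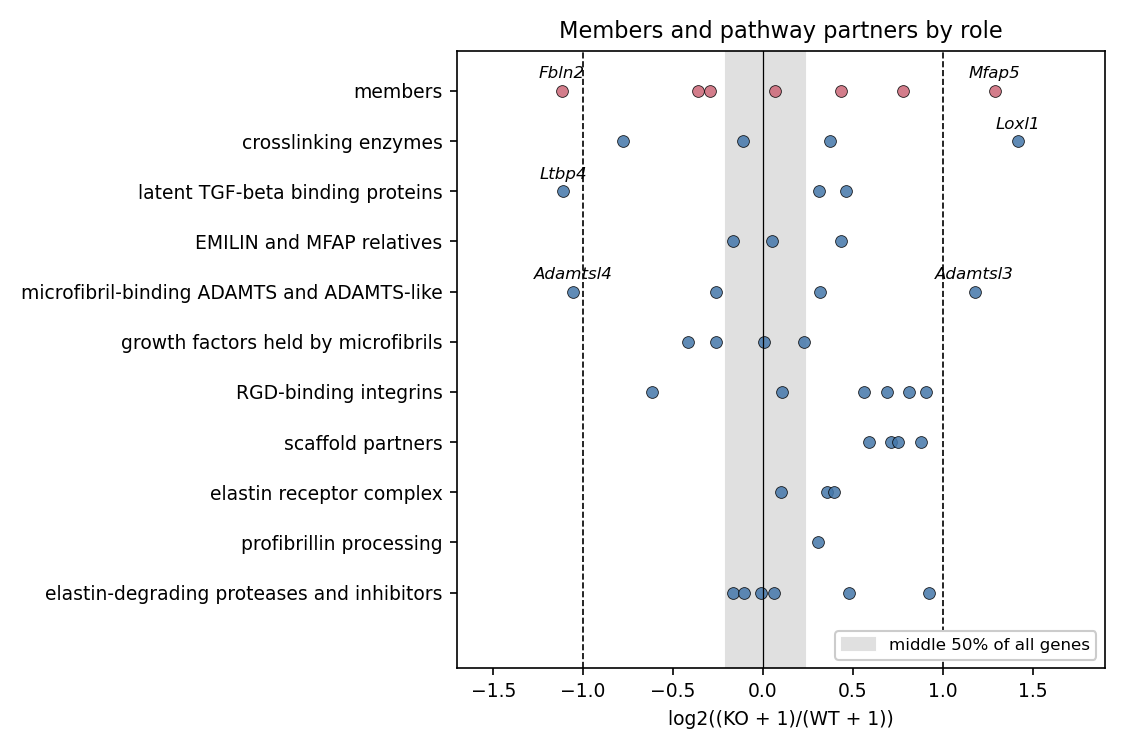
log2((KO + 1)/(WT + 1)) on the x axis for the 7 members (top row) and the 38 partners that reached a mean of 1 FPKM, in rows by role; the grey band holds the middle 50% of all 10542 genes and dashed lines mark 2-fold. Fbln2, Ltbp4 and Adamtsl4 lie beyond 2-fold on the left, and Mfap5, Loxl1 and Adamtsl3 on the right.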

How the data were processed

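Polyadenylated RNA of 2 C2C12 libraries, 1 WT and 1 GNE KO, was analysed. The members and gene lists were chosen with earlier results of these data known. The authors deposited a single value for each gene symbol, with no unit named, taken here as FPKM because the totals, 568410 and 574144, differ. Low values step with transcript length, which would hold for TPM as well. The paper's methods name expected read counts and TPM, and a TPM table with rows removed could look alike. The unit is therefore not settled. The submitters' processing notes name Trim Galore 0.6.6, STAR 2.7.9a and RSEM 1.3.3 with GRCm38, whereas the methods name GRCm39. The library kits given in the labels and in the supplementary methods also differ. Coordinates are from GENCODE vM39 on GRCm39, matched by symbol for 10171 of the 10542 genes used.

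There were 21853 rows, and where 24 of them repeated an earlier symbol only the higher-valued row entered. The pseudocount was 1, the filter a mean of at least 1 FPKM, and the limit a log2 difference beyond 1 in either direction. All members were named, and so were partners beyond 2-fold with a fixed set of others. Dcn, Loxl4, Adamtsl5, Fn1, Vcan, Bgn and Hspg2 were named after their values were seen. So were Ctsl, Mmp2, Mmp14, Timp1, Timp2 and Timp3. The fragment step used values between 0.004 and 0.15 and transcripts over 1500 bases, settings also chosen after the values were seen, and the fragment numbers are approximate and come with no interval. The procedure was run on simulated data with planted changes well past the limit, in genes without low WT values. That run checks the arithmetic and does not cover low genes or changes near 2-fold. Other pseudocounts, filters and scalings were tried. Python 3.11.15, numpy 2.4.6, pandas 2.3.3 and matplotlib 3.10.9 were used.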

Additional observations from a re-analysis of the deposited data

How the results depend on the processing

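No paired analysis was possible because each line has 1 library, and for the same reason no replicate could be left out. Counts within 1.5 times of each other were treated as alike, and a value as moved when it changed, for a share, beyond 5 percentage points or, for a log2 difference, beyond 0.438, the interquartile range of all genes, or across 2-fold. Of 60 comparisons of single members with an alternative, 57 kept their value by this measure and 0 reversed. The 3 that moved were Mfap2, at -0.88 with a pseudocount of 0.1, and Mfap5, at 1.91 with a pseudocount of 0.1 and 0.55 with 5. A reversal was counted only for members beyond 2-fold in the main run, so only Fbln2 and Mfap5 could show one. Both scalings, with a factor of 1.005, and the summing of repeated symbols could hardly move any member. The tally is therefore no measure of how firm the values are. Fbln2 was beyond 2-fold under each alternative run.

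With a pseudocount of 5, 0 members, 1 partner and 102 of all genes were more than 2-fold higher, and 0 partners and 176 of all genes more than 2-fold lower. Under the stricter filter of 5 FPKM, which leaves fewer genes to count, 0 members were higher, and 145 of all genes were higher and 221 lower, against 299 and 362. The members' median log2 difference of 0.07 became -0.01 with no filter and -0.11 with the stricter one, and the partners' median of 0.31 became 0.00 with no filter. With no filter both medians take in genes at or near 0 FPKM, where the pseudocount keeps log2 differences small. Scaling by the median of ratios or by the upper quartile used a factor of 1.005 in both cases. With 1 added to each value, the share of Mfap5 in the MAGPs was 63.5% in WT and 82.2% in the KO-labelled library, against 91.4% and 100%, and that of Fbn1 in the fibrillins was 91.2% and 89.4%, because the added 1 stands for a partner gene at or near 0. The fibulin shares stayed within 5 percentage points.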

Other observations

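The makeup of neighbouring families was described in the same way as that of the fibulins, from FPKM values within each library, which any scaling of a whole library leaves as they are. The 4 latent TGF-beta binding proteins, Ltbp1 among them, summed to 133 FPKM in WT and 153 FPKM in the KO-labelled library. Ltbp4 was 12.7% of that sum in WT and 4.8% in the KO-labelled library, Ltbp1 was 19.4% and 17.7%, and Ltbp2 34.5% and 41.5%. Among the 5 lysyl oxidases the sum was 441 and 437 FPKM, of which Lox held 89.9% in WT and 83.8% in the KO-labelled library, and Loxl1 3.5% and 9.7%. The order of Adamtsl3 and Adamtsl4, the ADAMTS-like genes beyond 2-fold, was exchanged. Adamtsl4 was at 4.03 times Adamtsl3 in WT and 0.698 times in the KO-labelled library. Each of these rests on 1 library per line.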
